A study of Mus musculus with 12 samples.

Results

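The 10 genes described here form the core of the mammalian circadian clock together with an output gene. They were taken by name from the 24062 gene symbols that each RNA-seq library counts, with earlier results of these data known. Arntl (whose protein is BMAL1), Clock and Npas2 encode the activators, Per1, Per2, Per3, Cry1 and Cry2 the repressors, Nr1d1 (REV-ERBα) a nuclear receptor that represses Arntl, and Dbp an output factor. Of the 10, 9 had enough reads to be tested between diets in the livers, where Npas2 was too low, and all 10 were tested in the xenografts and across all libraries.

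The libraries come from 12 mice in 4 groups of 3, and the comparisons ask how removal of tryptophan (Trp) from the diet changed gene expression in liver cancer. The liver groups are male LAP-tTA/TRE-MYC mice of the FVB strain, called MYC-ON, in which a hepatocyte promoter (LAP) drives the tTA activator and so a human MYC transgene, kept off in breeders by doxycycline and turned on from birth. Mice 101, 102 and 103 received the control diet, labelled complete, and mice 105, 107 and 108 the No-Trp diet. The xenograft groups are tumors of HCC53N, a mouse liver cancer line without p53 and with overexpressed mutant NRAS, injected under the skin of the flank of female NOD SCID mice, which lack B and T cells. Hosts 40, 41 and 43 received the control diet and hosts 35, 36 and 37 the No-Trp diet. In both models the mice were on their diet for 21 days. HCC53N is a single line, so its tumors do not sample different cancers, and the labels also give its tumor cells the genotype FVB MYC ON, which was not checked here because the human transgene is not among the genes analysed. The liver RNA came from livers that hold tumors, in which tumor and surrounding tissue cannot be told apart. The labels give no age for these mice, and neither the hour of tissue collection nor the light cycle is given in the sources used here. Each value below is therefore a level at 1 unstated time of day per mouse, not a rhythm.

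Between 14660963 and 26085349 reads per library fell on genes. The ribosomal precursor Rn45s took 12.1% of these reads in control liver 101 and 2.22% in control liver 102, against at most 0.758% in the other 10 libraries. Livers 101 and 108 and control xenografts 41 and 43 carry a resubmission mark in the deposit. Each diet has a marked liver, but no No-Trp xenograft is marked, so in the tumors mark and diet cannot be fully told apart. Reads not assigned to a gene were 28.5%, 39.4% and 32.2% in control xenografts 41, 43 and 40. They were 26.4% to 26.8% in the No-Trp xenografts. Hepatocyte markers were abundant in the livers, with Alb (albumin) at 4521 to 88159 CPM (read counts scaled to a fixed library size, with edgeR's TMM factors over all libraries). Ass1, a urea cycle enzyme, had 1 to 5 reads per liver, while the hepatocyte marker Cps1 stood at 1181 to 6602 CPM. The reason for so few Ass1 reads was not tested, and its counts are not read here as expression in either model. In the xenografts Alb stayed between 74.8 and 344 CPM, Ass1 was at 0, and the bile duct keratin Krt19 was at 169 to 648 CPM, against 6.14 to 19.9 CPM in the livers.

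As background, BMAL1 pairs with CLOCK or NPAS2 on E-box sequences and drives the Per, Cry, Nr1d1 and Dbp genes, whose PER and CRY products return to the nucleus and shut the pair down. REV-ERB and ROR proteins compete on another element and set the timing of Arntl, and DBP, HLF and TEF bind D-box sequences opposite the repressor NFIL3. In liver this clock is known for timing bile acid, xenobiotic and glucose metabolism, with Dbp and the Per genes among its strongest rhythms and Arntl peaking at the opposite phase.

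The promoters of Dbp and Per3 are shown because these clock genes had the smallest adjusted p in the livers. The elements described above were searched for in the windows of all clock genes that had one. Windows run from 250 bases before to 50 after the transcription start in RefSeq on GRCm38.p6, and 9 of the 10 genes had such a window (Per2 had none). The Dbp window lies at chr7:45704997-45705296 on the plus strand and the Per3 window at chr4:151044616-151044915 on the minus strand. Capitals mark D-boxes, spelled TTATGTAA or TTACGTAA.
Dbp: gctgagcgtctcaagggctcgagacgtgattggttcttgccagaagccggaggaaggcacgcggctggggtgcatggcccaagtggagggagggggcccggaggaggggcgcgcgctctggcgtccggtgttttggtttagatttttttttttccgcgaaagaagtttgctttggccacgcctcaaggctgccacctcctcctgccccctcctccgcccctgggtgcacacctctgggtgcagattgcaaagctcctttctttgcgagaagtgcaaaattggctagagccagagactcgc
Per3: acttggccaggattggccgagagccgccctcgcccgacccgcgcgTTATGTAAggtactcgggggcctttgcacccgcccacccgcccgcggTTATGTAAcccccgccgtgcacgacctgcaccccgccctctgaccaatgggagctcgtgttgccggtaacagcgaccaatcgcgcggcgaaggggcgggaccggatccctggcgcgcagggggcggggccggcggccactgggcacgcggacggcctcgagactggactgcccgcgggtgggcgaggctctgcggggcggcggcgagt
Per3 held 2 D-boxes, starting 205 and 158 bases before the start, in a set where 1.06% of all 32851 promoter windows hold at least 1. No D-box stood in the window of any other clock gene. Searches on both strands found the E-box CACGTG, present in 7.15% of all windows, in Per1 and Cry1. It began 166 bases before the start in 1 of the windows of Per1 and 60 bases before in Cry1. The E-prime box CACGTT, present in 4.68%, stood in Cry1, Cry2 and Nr1d1. The ROR element core TAGGTCA, present in 2.61% of all windows, stood in 1 of the windows of Arntl, 31 bases after its start. Some genes have more than 1 window, while the shares given count single windows. The cAMP response element TGACGTCA, present in 1.79%, stood in none of the 9 genes. Dbp held none of these letters in its window, which says nothing of elements elsewhere, such as in its introns. The E-box and E-prime box share their first 5 bases.

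In the MYC-ON livers, 14122 genes were tested with edgeR's quasi-likelihood test, and a gene was called where its Benjamini-Hochberg adjusted p did not exceed 0.05 and its log2 fold change reached 1 upward or downward. Of the 9 clock genes tested, 3 were called higher on the No-Trp diet and none lower: Dbp, Per3 and Per2. Of all genes, 16.5% were called, and 9.28% were called higher. With Cry2, 4 of the 9 passed the adjusted p alone, against 25.3% of all genes, and 5 had an unadjusted p under 0.05, as had 5901 of the 14122 genes. All 9 fold changes were above 0 and their median was 0.74 on the log2 scale, against 0.00 over all genes tested. Scaled by library totals alone, the median of all genes in the livers moved to -0.30, and relative to it the same genes led: Dbp (2.29) and Per3 (1.89) kept their calls, Per2 (0.79, adjusted p = 0.0590) lost its call, and Arntl, Clock and Cry1 fell below 0. That scaling called 732 of 2264 genes higher, against 1311 of 2337.

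Dbp, the PAR bZIP factor of the clock output (chr7:45705088-45710203, plus strand), stood at 4.15, 11.8 and 6.31 CPM in control livers 101, 102 and 103 and at 41.7, 62.0 and 31.6 CPM in No-Trp livers 105, 107 and 108. Every No-Trp liver was above every control liver, and liver 102 was the highest of the controls. The log2 fold change was 2.63 ± 0.43 (SE), a 6.19-fold rise, with an adjusted p of 0.0175. Of Dbp's 2993 exon bases, 539 (18.0%) are shared with Sphk2 on the other strand, and how reads there were assigned is not stated. Sphk2 differed by 0.80 in log2 fold change (adjusted p = 0.0253), short of the fold threshold.

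Per3, a repressor of the Period family (chr4:151003652-151044665, minus strand), stood at 15.2, 36.8 and 13.1 CPM in the control livers and at 86.6, 128 and 80.4 CPM in the No-Trp livers. The groups did not overlap, and liver 102 again led the controls while liver 107 led the No-Trp group. The log2 fold change was 2.21 ± 0.43, a 4.62-fold rise, with an adjusted p of 0.0211. The gene shares no exon with Camta1, within whose span it lies.

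Per2, which encodes a Period repressor (chr1:91415982-91459324, minus strand), stood at 40.3, 54.9 and 34.9 CPM in the control livers and at 71.0, 141 and 70.0 CPM in the No-Trp livers. The groups did not overlap, but liver 107 lay far above the other No-Trp livers. The log2 fold change was 1.14 ± 0.32, a 2.20-fold rise (adjusted p = 0.0421). Per1 (chr11:69095217-69109960, plus strand), the Period gene that also answers directly to hormones and cAMP, stood at 44.5, 74.5 and 88.7 CPM in the control livers and at 156, 152 and 88.3 CPM in the No-Trp livers. Liver 108 lay level with control liver 103, so the groups overlapped, and the log2 fold change of 0.95 ± 0.32 did not pass the test (adjusted p = 0.0653), although without liver 108 it did (1.17, adjusted p = 0.0444).

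Cry2, a cryptochrome repressor (chr2:92403646-92434043, minus strand), stood at 47.2, 65.6 and 62.3 CPM in the control livers and at 102, 113 and 73.7 CPM in the No-Trp livers. The groups did not overlap, and the log2 fold change of 0.74 ± 0.21 (1.67-fold) passed the adjusted p at 0.0442 but not the fold threshold. The antisense transcript D930015M05Rik shares 295 of its exon bases and stood at 0.916 to 2.83 CPM in the livers. Its paralog Cry1 (chr10:85131700-85185064, minus strand) lay between 30.4 and 46.1 CPM in all 6 livers, and its log2 fold change was 0.11 ± 0.20 (adjusted p = 0.694).

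The activators showed smaller differences. Arntl (chr7:113207465-113314126, plus strand) stood at 5.26, 9.41 and 5.35 CPM in the control livers and at 8.12, 6.03 and 7.30 CPM in the No-Trp livers, a log2 fold change of 0.12 ± 0.31 (adjusted p = 0.795). Clock (chr5:76209868-76304792, minus strand) lay between 27.4 and 42.4 CPM in the 6 livers, with 0.27 ± 0.18 (adjusted p = 0.281). Npas2 (chr1:39193731-39363236, plus strand) had 5, 0 and 10 reads in the control livers and 3, 13 and 5 in the No-Trp livers, too few for the test. Nr1d1 (chr11:98767932-98775333, minus strand) stood at 26.6, 21.5 and 30.4 CPM in the control livers and at 42.0, 39.0 and 21.8 CPM in the No-Trp livers. Livers 105 and 107 were above the controls and liver 108 among them, and the log2 fold change was 0.41 ± 0.28 (adjusted p = 0.306). Nr1d1 shares 263 exon bases (8.55%) with Thra on the other strand, whose log2 fold change was -0.16.

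The 2 liver groups did not overlap in 4 of the 9 clock genes (Dbp, Per2, Per3 and Cry2, each higher on the No-Trp diet). Among all genes tested 48.6% did not overlap, and in 23.6% every No-Trp liver was the higher one.

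**Figure D1:**
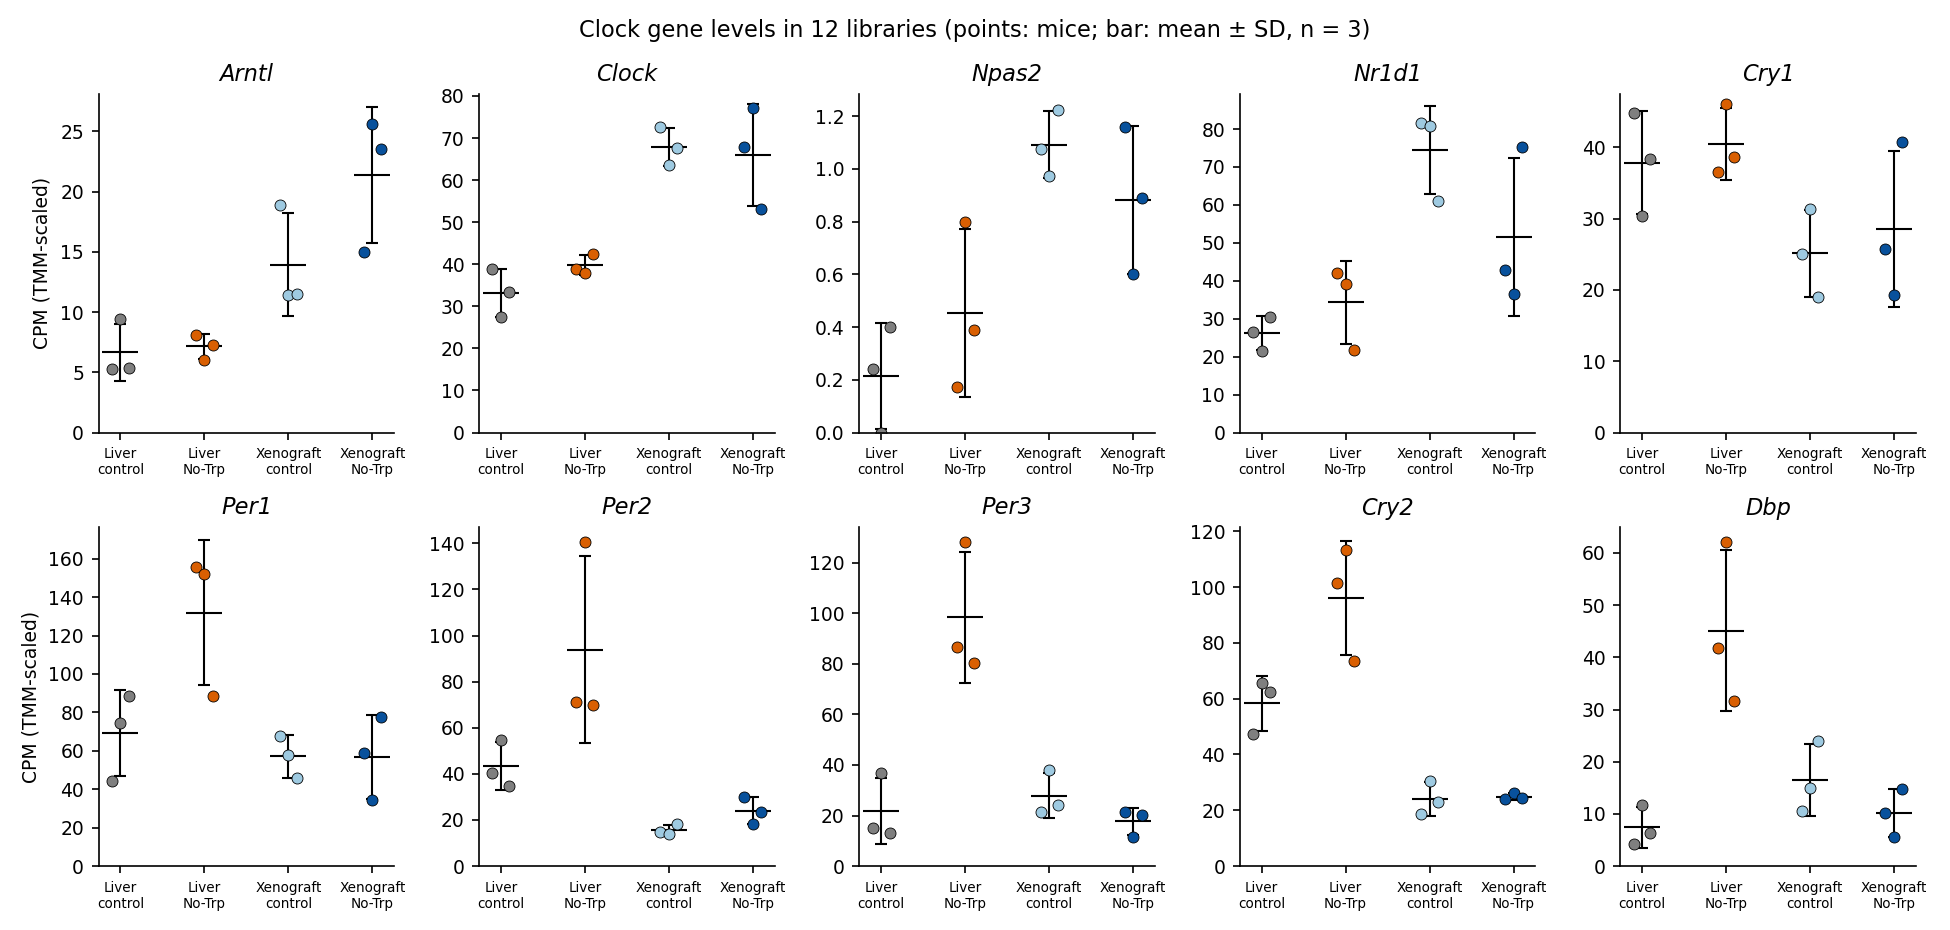
Level of each clock gene in TMM-scaled CPM (vertical axes, linear from 0, 1 scale per gene) in the 4 groups, with 1 point per mouse and a bar for the mean ± SD (n = 3). Dbp reaches 31.6 to 62.0 CPM in the No-Trp livers and stays at or below 24.0 CPM in the other 9 libraries, while Arntl and Clock are higher in the xenografts than in the livers on both diets.

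The calls in the livers rested on few mice, among all genes as among the clock genes. With all 6 livers 2337 genes were called. The number was 294 without liver 101, 8 without 103, 368 without 105 and 1269 without 107. Dbp lost its call without control liver 101 (adjusted p = 0.0523), 103 (0.0873) or No-Trp liver 105 (0.0517), and Per3 without the same 3 livers (0.064, 0.0873 and 0.0562), by the same edgeR test on 5 livers. Their fold changes moved little, from 2.32 to 3.10 on the log2 scale for Dbp and from 1.93 to 2.80 for Per3 as each liver was left out in turn. Per2 lost its call without livers 101, 103, 105 or 107, at adjusted p-values of 0.0675 to 0.143, and fell to 0.71 without liver 107. Among the 4 livers without a resubmission mark the log2 fold changes were 2.52 for Dbp, 2.11 for Per3 and 1.24 for Per2, at adjusted p-values of 0.0923, 0.0972 and 0.124, and no gene of the whole table was called there by edgeR (6 of 9 clock genes and 4948 of 14198 genes in all had an unadjusted p under 0.05). Between the marked livers, 108 on the No-Trp diet and 101 on the control diet, the log2 ratios were 2.93 for Dbp, 2.40 for Per3 and 0.80 for Per2.

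Markers of other cells moved with the diet in the same livers, where 9.28% of all genes tested were called higher and 7.27% lower. Of 9 hepatocyte markers tested, 3 were called higher on the No-Trp diet and none lower, and the summed level of the 10 listed was 9515 to 38682 CPM in the control livers against 49881 to 121971 CPM in the No-Trp livers. All 6 proliferation genes were called lower, with a summed level of 1208 to 1388 CPM against 138 to 410 CPM. Of 5 erythroid genes tested, 4 were called lower, with 56.4 to 566 CPM against 15.7 to 24.3 CPM. Hbb-b1 was at 0 throughout, although Alas2 stood at 16.5 to 105 CPM in the control livers, and that 0 is not read here as expression. Endothelial and fibroblast markers each had 1 of 6 called higher, and none of 5 cholangiocyte, 6 macrophage, 6 lymphocyte or 4 skin, muscle and fat markers was called. The part of these shifts in the levels of Dbp, Per3 and Per2 was not tested, and in whole tissue fewer cells of a type cannot be told apart from less RNA per cell.

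In the HCC53N xenografts no clock gene was called on the No-Trp diet. None of the 10 passed the adjusted p of edgeR's quasi-likelihood test, 1 had an unadjusted p under 0.05 (2483 of all 14704 genes did), and DESeq2 likewise called none, with 3 at an unadjusted p under 0.05. Of all 14704 genes tested 0.36% were called. The median log2 fold change of the 10 genes was -0.03, against 0.00 over all genes.

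The genes that rose in the livers did not share a direction in the tumors. Dbp stood at 24.0, 10.5 and 15.0 CPM in control xenografts 40, 41 and 43 and at 10.1, 5.54 and 14.8 CPM in No-Trp xenografts 35, 36 and 37. The groups overlapped, and the log2 fold change was -0.71 ± 0.42 (adjusted p = 0.434). Per3 stood at 24.2, 21.4 and 38.1 CPM against 21.4, 11.6 and 20.1 CPM, a log2 fold change of -0.67 ± 0.30 (adjusted p = 0.307). Its highest No-Trp tumor lay just below its lowest control tumor.

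Per2 stood at 18.2, 14.6 and 13.8 CPM in the control xenografts and at 30.0, 18.3 and 23.6 CPM in the No-Trp xenografts, with its groups apart by a margin as thin as that of Per3. Its log2 fold change of 0.61 ± 0.23 carried the smallest p among the clock genes, yet missed the threshold after adjustment (adjusted p = 0.230). Per2 and Per3 were the 2 of 10 whose groups did not overlap, against 22.5% of all genes. Per1 (34.2 to 77.8 CPM over the 6 tumors), Cry1 (19.1 to 40.7 CPM) and Cry2 (18.6 to 30.5 CPM) had log2 fold changes of -0.01 ± 0.30, 0.18 ± 0.30 and 0.04 ± 0.21.

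Arntl stood at 11.5, 18.9 and 11.4 CPM in the control xenografts and at 15.0, 25.6 and 23.5 CPM in the No-Trp xenografts, a log2 fold change of 0.61 ± 0.28 (adjusted p = 0.324). Nr1d1, which represses it, stood at 61.1, 81.7 and 80.8 CPM against 42.9, 36.6 and 75.4 CPM, a log2 fold change of -0.54 ± 0.28 (adjusted p = 0.378). Tumors 35 and 36 were below all controls in Nr1d1 and tumor 37 was not. Clock lay between 53.1 and 77.0 CPM with a log2 fold change of -0.05 ± 0.16, and Npas2 between 16 and 32 reads, with -0.32 ± 0.46. With library totals, which moved the median of all genes to 0.11, Clock and Per1 turned to the other side of 0. Among all genes tested in the xenografts, 0.245% were called higher. Of the tumor marker lists only the one of skin, muscle and fat had calls, with Adipoq and Plin1, 2 of its 6 genes, called higher (Adipoq at 0.784 to 2.19 CPM in controls and 18.8 to 57.6 CPM without Trp). Its summed level was 26.0 to 182 CPM in the control tumors and 104 to 143 CPM in the No-Trp tumors, and its part in the clock gene levels was not tested.

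**Figure D2:**
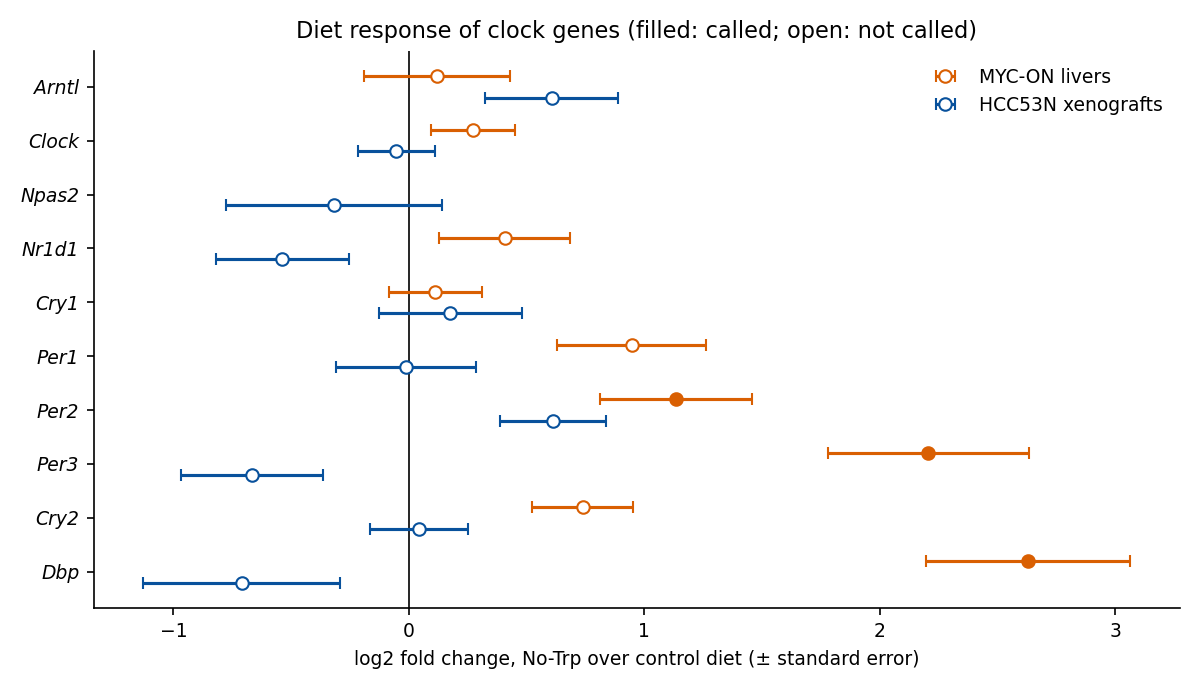
Log2 fold change of each clock gene, No-Trp over control diet (horizontal axis), in MYC-ON livers (orange) and HCC53N xenografts (blue), with bars of ± 1 standard error and filled points for called genes (Npas2 was not tested in livers). Dbp lies at 2.63 in livers and -0.71 in xenografts and Per3 at 2.21 and -0.67, while Per2 lies above 0 in both.

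The difference between the models was tested as the interaction in a fit of all 12 libraries, as the xenograft diet effect minus the liver diet effect. Of the 10 clock genes, 2 were called, both lower: Dbp at -3.31 ± 0.65 (adjusted p = 0.0111) and Per3 at -2.84 ± 0.56 (adjusted p = 0.0114). Of all 15472 genes tested, 12.7% were called and 6.01% called lower. Library totals moved the median of all genes to 0.41 and called 1825 genes higher and 437 lower, against 1036 and 930, with Dbp and Per3 still called. Both genes stayed called as each of the 12 libraries was left out in turn, at log2 values of -3.80 to -2.94 for Dbp and -3.45 to -2.55 for Per3. Among the libraries without a resubmission mark, where a single control xenograft remains and is assumed to vary like the other groups, their adjusted p-values were 0.0675 and 0.0999. For Per2 the interaction was -0.49 ± 0.41 (adjusted p = 0.439), so its rise in the livers was not shown to differ from the value in the tumors. Cry2 (-0.67 ± 0.30, adjusted p = 0.148), Nr1d1 (-0.92 ± 0.42, adjusted p = 0.151) and Per1 (-0.93 ± 0.47, adjusted p = 0.191) were lower in the same sense without passing the test. The remaining genes had interactions of -1.30 ± 1.06 (Npas2), -0.30 ± 0.24 (Clock), 0.09 ± 0.38 (Cry1) and 0.51 ± 0.44 (Arntl).

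The level of the clock genes themselves differed between tumor and liver. The models differ in sex, mouse strain, site and tumor genotype, which cannot be told apart. Each diet's difference, xenograft minus liver, came from the 12-library fit. On the control diet 7 of the 10 were called, with the activators, Nr1d1 and Dbp higher in xenografts and Per2 and Cry2 lower, against 43.5% of all genes. On the No-Trp diet 6 were called, 1 higher and 5 lower, against 43.7% of all genes. Library totals, which moved the median of all genes on the No-Trp diet to 0.68, called 3 clock genes higher and 4 lower there, and of all 15472 genes 5797 higher and 2024 lower.

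All 3 activators were higher in the control-diet xenografts. Arntl was higher by 1.07 ± 0.32 on the log2 scale (adjusted p = 0.0117), Clock by 1.03 ± 0.17 (adjusted p = 2.74e-04) and Npas2 by 2.26 ± 0.77 (adjusted p = 0.0236), where the liver level was near the limit of detection. Without control xenograft 41 the Arntl difference was 0.78 (adjusted p = 0.0626) and without control liver 101 or 103 it fell short of the fold threshold (0.92 and 0.93), as did Clock without control liver 102, No-Trp liver 107 or control xenograft 41 (0.88 to 0.99). Npas2 lost its call without control liver 101 or 102 or control xenograft 40 (adjusted p of 0.0507 to 0.0563). On the No-Trp diet Arntl was higher by 1.58 ± 0.32 (adjusted p = 0.00108), Clock by 0.73 ± 0.17 (adjusted p = 0.00282), short of the fold threshold, and Npas2 by 0.95 ± 0.74 (adjusted p = 0.284).

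Among the repressors, Per2 was lower in the xenografts by -1.48 ± 0.30 on the control diet (adjusted p = 0.00102) and -1.97 ± 0.30 on the No-Trp diet (adjusted p = 1.25e-04). Cry2 was lower by -1.29 ± 0.22 (adjusted p = 2.86e-04) and -1.95 ± 0.22 (adjusted p = 1.09e-05). Both kept their calls in every fit that left out 1 library. Per1 differed by -0.28 ± 0.33 on the control diet (adjusted p = 0.489) and by -1.21 ± 0.33 on the No-Trp diet (adjusted p = 0.00778), or -0.95 without No-Trp xenograft 36. Cry1 passed neither test, at -0.59 ± 0.27 and -0.50 ± 0.27 (adjusted p = 0.0780 and 0.127).

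Dbp and Per3 were both lower in No-Trp xenografts than in No-Trp livers. On the control diet Dbp was higher in the xenografts by 1.16 ± 0.46 (adjusted p = 0.0464), although a control xenograft at 10.5 CPM lay below control liver 102 at 11.8 CPM, and the call was lost without liver 101, 103, 105 or 107 or xenograft 35, 40 or 43 (adjusted p of 0.0526 to 0.187). Without Trp it was lower by -2.16 ± 0.47 (adjusted p = 0.00176). Per3 differed by 0.37 ± 0.39 on the control diet (adjusted p = 0.445) and was lower by -2.48 ± 0.41 without Trp (adjusted p = 2.77e-04). Nr1d1 was higher in the xenografts by 1.51 ± 0.30 on the control diet (adjusted p = 0.00100) and by 0.59 ± 0.30 without Trp, which did not pass the test (adjusted p = 0.105).

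Ordered by group mean in CPM, Arntl rose from control livers (6.67 ± 2.37, SD, n = 3) through No-Trp livers (7.15 ± 1.06) and control xenografts (13.9 ± 4.27) to No-Trp xenografts (21.4 ± 5.62), and within each model the neighbours overlapped in their spread. Clock ran from 33.2 ± 5.75 and 39.8 ± 2.35 in the livers to 66.0 ± 12.1 in No-Trp and 67.9 ± 4.53 in control xenografts, with a gap beyond the spread between the models only. Dbp ran from 7.41 ± 3.93 in control livers through 10.1 ± 4.61 in No-Trp and 16.5 ± 6.86 in control xenografts, neighbours within their spread, to 45.1 ± 15.5 in No-Trp livers. Per3 ran in a like way from 17.7 ± 5.31 in No-Trp xenografts through 21.7 ± 13.1 in control livers and 27.9 ± 8.92 in control xenografts to 98.4 ± 26.0 in No-Trp livers. Per2 was lowest in control xenografts (15.5 ± 2.37), then No-Trp xenografts (24.0 ± 5.81), control livers (43.4 ± 10.3) and No-Trp livers (93.9 ± 40.5), where the spread of the last pair overlapped.

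Per length of exon, as RPKM, which divides CPM by exon length in kilobases, the clock genes ranked differently in livers and xenografts. Per1 had the highest mean in control livers (12.3 ± 4.01). Its range of mean ± SD there met those of Cry1 (11.3 ± 2.16), Cry2 (9.23 ± 1.56), Nr1d1 (8.50 ± 1.45) and Per2 (7.40 ± 1.76). Per1 also had the highest mean in No-Trp livers (23.4 ± 6.71), where its range met those of Per2, Cry2 and Dbp. Nr1d1 had the highest mean in control xenografts (24.2 ± 3.78) and No-Trp xenografts (16.8 ± 6.77). In the latter its range met those of Per1 (10.1 ± 3.88) and Cry1 (8.55 ± 3.29). Dbp held a mean of 2.48 ± 1.31 RPKM in control livers, beside Clock (2.42 ± 0.42) and Per3 (2.26 ± 1.37), and 15.1 ± 5.18 RPKM in No-Trp livers, beside Per2 (16.0 ± 6.92) and Cry2 (15.2 ± 3.23). Arntl was below 3 RPKM in every group and Npas2 was last in all 4, from 0.0446 ± 0.0420 in control livers to 0.228 ± 0.0263 in control xenografts.

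The ratio of 2 genes inside a library does not depend on how libraries are scaled, so the activator Arntl was set over genes of the opposite phase, as a log2 ratio of read counts with 0.5 added. In the livers Arntl over Dbp was 0.34, -0.32 and -0.24 in controls 101, 102 and 103 and -2.36, -3.36 and -2.11 in No-Trp livers 105, 107 and 108. The groups were apart, and the mean moved by -2.53 (exact two-sided permutation p = 0.1, the smallest that 3 mice against 3 allow). Arntl over Per3 moved by -2.16 in the livers, with groups apart at the same exact p of 0.1. Both shifts rest on the same counts as the liver calls of Dbp and Per3 and are not separate evidence. Arntl over Nr1d1 moved by -0.20 in the livers (exact permutation p = 0.6), with its groups overlapping.

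In the xenografts the same ratios moved upward. Arntl over Nr1d1 was -2.41, -2.11 and -2.82 in controls 40, 41 and 43 and -1.51, -0.52 and -1.68 in No-Trp tumors 35, 36 and 37, a shift of 1.21 with groups apart (exact permutation p = 0.1). Arntl over Dbp moved by 1.35 (exact permutation p = 0.3) and Arntl over Per3 by 1.28 (exact permutation p = 0.2), both with overlap. Npas2, a known REV-ERB target, over Nr1d1 moved by 1.15 in the livers and 0.24 in the xenografts (exact permutation p = 0.5 and 0.7), with few Npas2 reads in the livers. The 8 exact p-values form 1 family in which none can fall below 0.1, so none can pass a threshold of 0.05.

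**Figure D3:**
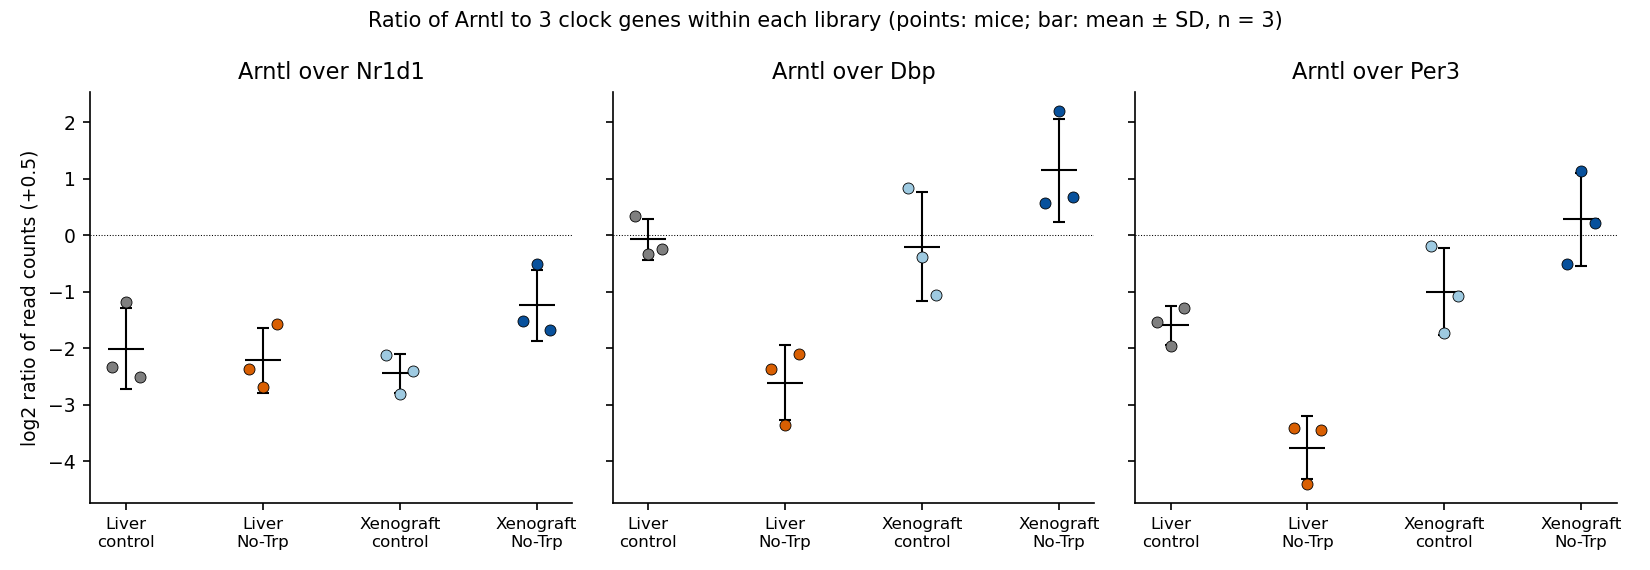
Log2 ratio of the read counts of Arntl to Nr1d1, Dbp and Per3 within each library (vertical axes, 0.5 added to each count), with 1 point per mouse and a bar for the mean ± SD (n = 3). Arntl over Dbp and Arntl over Per3 are lower in all No-Trp livers than in all control livers, and Arntl over Nr1d1 is higher in all No-Trp xenografts than in all control xenografts.

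Other genes of the clock loops were read from a list of 11 written for this account, of which 10 were tested in the livers (Rorb was not). Of these 10, 6 were called higher without Trp and none lower, against 9.28% of all genes called higher, and the median log2 fold change was 1.14. They were Rora (2.05 ± 0.29, adjusted p = 0.0142), the ROR receptor that activates Arntl, Ciart (1.73 ± 0.33, adjusted p = 0.0196), a repressor of the BMAL1 and CLOCK pair, Tef (1.62 ± 0.30, adjusted p = 0.0196) and Hlf (1.20 ± 0.26, adjusted p = 0.0239), which bind D-boxes with DBP, Bhlhe40 (1.27 ± 0.35, adjusted p = 0.0377), an E-box repressor, and Nr1d2 (1.08 ± 0.24, adjusted p = 0.0255), the second REV-ERB. Nfil3, the repressor opposite DBP, had 0.00 ± 0.42. Bhlhe41 and Arntl2 had -0.67 ± 0.47 and 0.22 ± 0.30. All 6 calls were lost without control liver 103 (adjusted p of 0.0833 to 0.114), and all but that of Rora also without liver 101 or 105. Most calls of the whole table were lost there too, with 8, 294 and 368 genes left without 103, 101 and 105, against 2337. Without liver 107 the changes of Bhlhe40 and Nr1d2 were 0.79 and 0.78, short of the fold threshold.

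All 3 D-box activators stood higher in every No-Trp liver than in every control liver, as did 23.6% of all genes tested. Tef was at 87.3, 107 and 85.0 CPM in the control livers and at 282, 388 and 177 CPM in the No-Trp livers, and Hlf at 53.2, 76.6 and 67.5 CPM against 173, 173 and 100 CPM. In the xenografts Hlf was at 0.957 to 1.99 CPM, far below its liver level, and Tef at 64.4 to 98.2 CPM in controls and 32.2 to 71.7 CPM without Trp, overlapping. Rorb, nearly unread in the livers at 0.0560 to 0.233 CPM, was at 11.7 to 27.4 CPM in the xenografts.

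In the xenografts none of the 11 was called, where 0.36% of all genes were, and their median log2 fold change was -0.36. In the interaction 4 of the 11 were called, all lower (6.01% of all genes were called lower): Tef (-2.14 ± 0.46, adjusted p = 0.0148), Bhlhe40 (-2.10 ± 0.53, adjusted p = 0.0247), Rora (-1.73 ± 0.51, adjusted p = 0.0408) and Nr1d2 (-1.42 ± 0.31, adjusted p = 0.0147). Tef and Nr1d2 stayed called with each library left out, Rora in only 3 of these 12 fits (without liver 102 or 108 or xenograft 40), and Bhlhe40 lost its call without liver 101, 103 or 107 or xenograft 35 or 36 (adjusted p of 0.0523 to 0.0581). Their median was -0.82 over the 11 genes, against 0.03 over all genes. The kinases and ubiquitin ligases that set the life of PER and CRY proteins showed no call among 9 genes in any diet comparison. Of all genes, 16.5% were called in the livers, 0.36% in the xenografts and 12.7% in the interaction. The medians of the 9 were 0.10 in livers and -0.28 in xenografts. Gsk3b alone passed the adjusted p in the livers (0.50 ± 0.15, adjusted p = 0.0448), against 25.3% of all genes.

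Of 10 liver genes with a known daily rhythm, 2 were called higher in the No-Trp livers and none lower. Over all genes 9.28% were called higher, and the list's median log2 fold change of 2.02 includes genes that did not pass the test. Por, the reductase that feeds electrons to cytochromes P450, rose by 3.22 ± 0.45 (adjusted p = 0.0142), from 133, 302 and 166 CPM to 1397, 2724 and 1406 CPM. Usp2, a deubiquitinase under clock control, rose by 1.13 ± 0.30 (adjusted p = 0.0363). Without control liver 103 neither was called (adjusted p = 0.0833 and 0.122), and Usp2 also lost its call without liver 101, 105 or 107. Only 8 genes of the whole table were called without liver 103, against 2337 with it. Nampt, of NAD salvage, and Noct (nocturnin, counted under its older symbol Ccrn4l) passed the adjusted p at 0.65 ± 0.19 and 0.88 ± 0.24. Alas1 of heme synthesis had 3.04 ± 0.91, with an adjusted p of 0.0503, and spread from 53.2 to 461 CPM among the control livers. None of the 9 tested in the xenografts was called, where 0.36% of all genes were. In the interaction, which called 12.7% of all genes, Por alone was called, at -3.39 ± 0.48 (adjusted p = 0.00484).

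**Figure D4:**
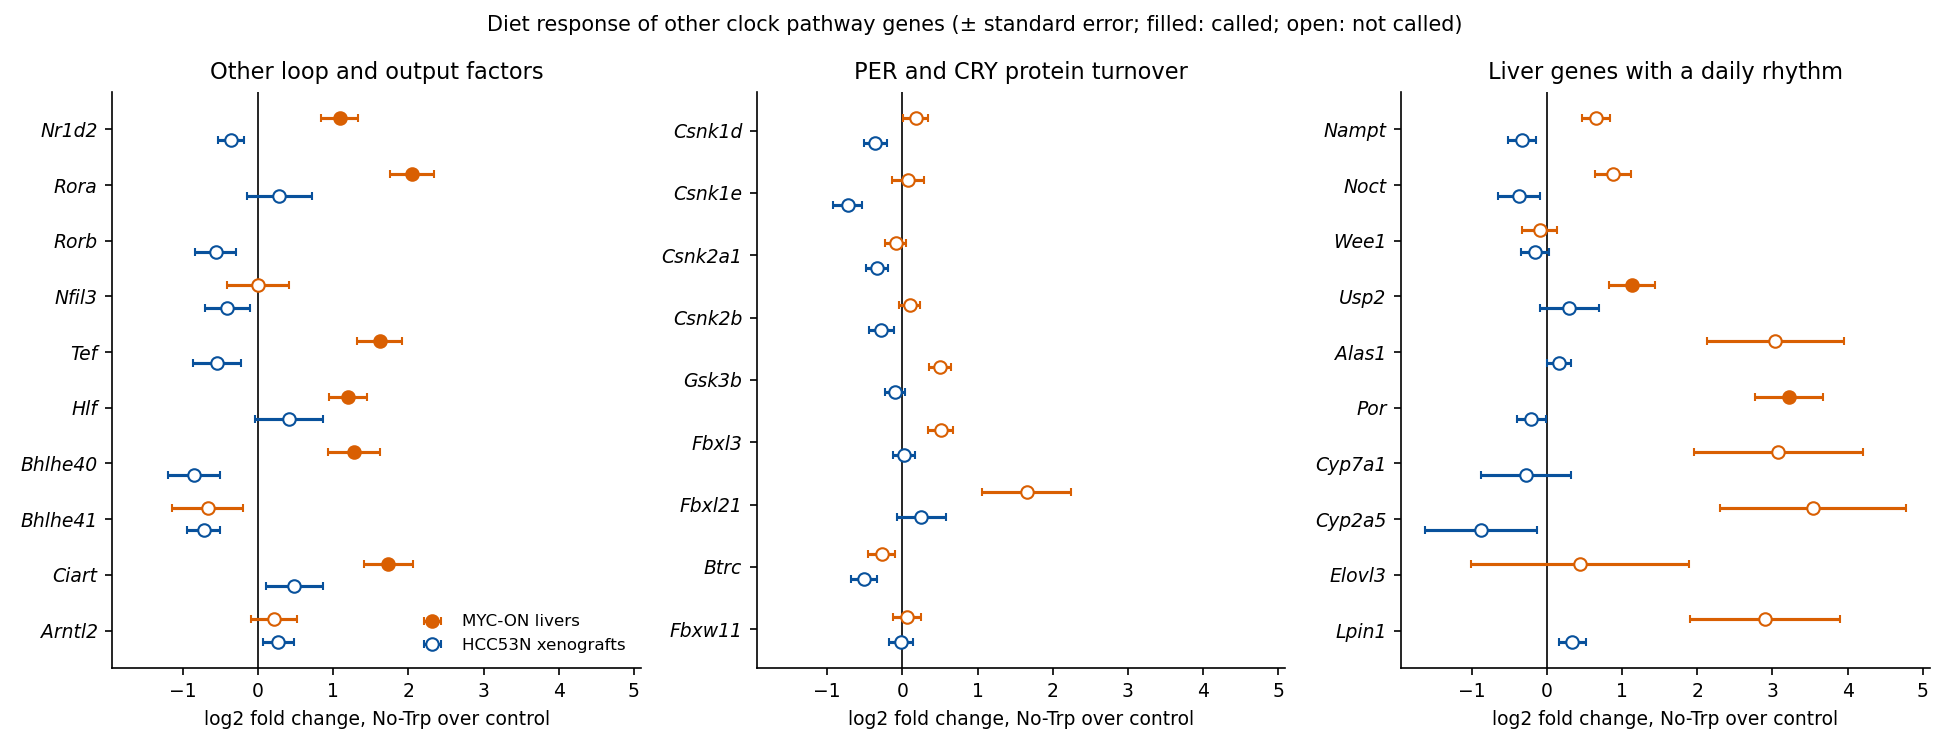
Log2 fold change, No-Trp over control diet (horizontal axes), of further clock loop genes, genes of PER and CRY protein turnover, and rhythmic liver genes, in MYC-ON livers (orange) and HCC53N xenografts (blue), with bars of ± 1 standard error and filled points for called genes. No gene shown is called in the xenografts, and in the livers the called genes are 6 loop genes between 1.08 and 2.05 and the outputs Por at 3.22 and Usp2 at 1.13.

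Signals from outside the clock that act on its genes were read from 2 more lists. Of 6 genes that respond to glucocorticoids, 3 were called higher in the No-Trp livers, Sgk1 (2.36 ± 0.31, adjusted p = 0.0136), Zbtb16 (1.99 ± 0.51, adjusted p = 0.0344) and Fkbp5 (1.79 ± 0.19, adjusted p = 0.0108), and none lower, at a list median of 1.37 (9.28% of all genes were called higher). Fkbp5 stood at 132, 118 and 143 CPM in the control livers and at 478, 483 and 384 CPM in the No-Trp livers, tight groups far apart. The 3 calls were lost without control liver 103 (adjusted p of 0.0784 to 0.0940), and that of Zbtb16 also without liver 101, 105 or 107. Leaving out liver 103 left 8 called genes in the whole table, against 2337. In the xenografts none of the 6 was called (0.36% of all genes were), with a median of 0.14. Fkbp5, Zbtb16 and Tsc22d3 were each higher in every No-Trp tumor, as were 10.7% of all genes. Their log2 fold changes were 0.57 ± 0.14, 1.57 ± 0.49 and 0.49 ± 0.21 (adjusted p = 0.118, 0.173 and 0.281). For Tsc22d3 the margin was thin, at 67.9 CPM in No-Trp tumor 36 against 67.8 CPM in control tumor 40. Of the 6, Sgk1 and Fkbp5 were called in the interaction, at -2.89 ± 0.44 and -1.20 ± 0.20 (adjusted p = 0.00593 and 0.00719), against 6.01% of all genes called lower.

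Of 8 genes that respond to temperature, the cold-inducible RNA-binding gene Cirbp (1.85 ± 0.27, adjusted p = 0.0144) and the heat shock gene Hspa1b (1.61 ± 0.28, adjusted p = 0.0183) were called higher in the No-Trp livers and the chaperone Hsp90aa1 lower (-1.56 ± 0.28, adjusted p = 0.0195), at a median of 0.04 (16.5% of all genes were called in either direction). Hspa1b and Hspa1a are near-identical copies whose reads can be split between them. Without control liver 103 the 3 calls were lost (adjusted p of 0.0833 to 0.0873), those of Hspa1b and Hsp90aa1 also without liver 101 and that of Hsp90aa1 without liver 105. The whole table then held 8, 294 and 368 called genes without 103, 101 and 105, against 2337. In the xenografts none of the 8 was called (0.36% of all genes were), at a median of -0.33. The interaction, which called 12.7% of all genes, called Cirbp lower (-2.10 ± 0.48, adjusted p = 0.0178) and Hsp90aa1 higher (1.71 ± 0.35, adjusted p = 0.0120). Whether these genes and the clock genes moved for a shared reason was not tested.

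The genes whose pattern was most like that of Arntl and of Nr1d1 were sought by Pearson r in log2 CPM over the 12 libraries, after subtraction of each model's mean, among 11668 genes with a mean of at least 100 counts. Nearest to Arntl were Nek1 (r = 0.89), Mtrr (0.88), Btc (0.88), 1700008J07Rik (0.87) and Rasgrp2 (0.87). Nearest to Nr1d1 were Igf1r (r = 0.93), Ppp3ca (0.89), Ak4 (0.88), Vps37c (0.88) and Fbrs (0.87). These are the highest among all genes compared over the same 12 libraries and are given as a description.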

How the data were processed

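PolyA RNA of 12 mice was sequenced by a commercial provider. The deposited values are whole read counts per gene symbol, which the authors made with Trim Galore, STAR 2.7.2b and HTSeq on mm10, per the labels, without normalization. The strand setting and the rule for overlapping genes are not given in the sources used here. Reads not assigned to a gene (24.7% to 39.4% per library) stayed out of library sizes.

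The test of counts was that of edgeR 4.0.16 (R 4.3.3; the filterByExpr filter, TMM factors, a robust quasi-likelihood fit and a two-sided F test, with Benjamini-Hochberg adjustment over the genes tested). Livers and xenografts were fitted apart for diet, and together for the interaction and the model differences. An SE is the size of the log2 fold change divided by the square root of F. Biological coefficients of variation were 31.6% in livers and 28.7% in xenografts. Replicate libraries differed by 36.8 to 291 times the counting noise, and each was counted once. With 3 mice per group, each edgeR p-value judges a difference against a spread between mice that is estimated with information from all genes.

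The clock genes and gene lists were chosen with earlier results of these data known. Text names all 10 clock genes, at most 6 called genes per further list and diet comparison and 3 in the interaction (Rora there, and genes given without a call, were added after their values were seen), and the 5 nearest patterns to Arntl and Nr1d1. Exon lengths and positions are from GENCODE M21 on GRCm38, and 94.5% of symbols matched. As alternatives served DESeq2 1.42.0 run on every gene with reads, library totals, RLE factors, other count filters, the resubmission mark as a covariate or exclusion, 1 joint fit, no fold threshold, Rn45s left out, the 6 libraries of a diet alone, and each library left out. The main edgeR fits for diet in livers, for diet in xenografts and for the interaction were run on simulated data. The alternatives and the model differences were not. A further gene of the lists is counted but not reported here.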

Additional observations from a re-analysis of the deposited data

Results flagged for a closer look

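Each result here differed between the models by the interaction test of edgeR over all 12 libraries, as the xenograft diet effect minus the liver diet effect on the log2 scale. Among the clock genes these were Dbp (-3.31) and Per3 (-2.84). Among the other loop genes they were Tef (-2.14), Bhlhe40 (-2.10), Rora (-1.73) and Nr1d2 (-1.42), and among rhythmic liver genes Por (-3.39). Among the genes that respond to glucocorticoids they were Sgk1 (-2.89) and Fkbp5 (-1.20), and among those that respond to temperature Cirbp (-2.10) and Hsp90aa1 (1.71). Each adjusted p is given with the results. The liver and xenograft mice differ in sex, strain, site and tumor genotype, so the source of a difference between the models cannot be told apart.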

How the results depend on the processing

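No paired analysis was possible because no 2 groups share animal numbers. In the livers, 3 clock genes were called, and 0 among the 4 livers without a resubmission mark. Leaving out each liver gave 0 to 4 clock genes and 8 to 3207 genes in all, the lowest without control liver 103, against 2337, and 0 without the marked livers and 3570 by the adjusted p alone. In the xenografts 53 genes were called in all, and 380 with DESeq2, 82 with RLE factors, 118 with no filter, 15 with at least 10 counts in every library, 4 with the resubmission covariate, 0 without the marked tumors (1 control against 3), 23 in the joint fit, 85 without Rn45s and 9 to 78 with each tumor left out, but no clock gene in any of these. The interaction called 1966 genes, 916 to 2571 with 1 library left out, and 15 genes and 0 clock genes without the marked libraries. On the control diet, 4 to 7 clock genes were called between models with 1 library left out, against 6361 to 6818 of all genes. Without the marked libraries a single control xenograft remains, and no count is given for that fit.

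Values under the alternatives that crossed 0 belong to genes without a call. In the livers Arntl was -0.16 with library totals, -0.058 without the marked libraries and -0.031 to 0.43 with 1 liver left out, Clock was -0.011 with library totals, and Cry1 was -0.19 with library totals and -0.036 to 0.25 with 1 liver left out. In the xenografts Clock was 0.059 with library totals and -0.18 to 0.087 with 1 tumor left out, and Per1 was 0.093 with library totals, 0.0047 under the stricter filter, 0.31 with the covariate, 0.31 without the marked tumors and -0.30 to 0.25 with 1 left out. Cry1 spanned -0.17 to 0.40 and Cry2 -0.11 to 0.25 there. In the interaction Clock was 0.070 with library totals, and Cry1 was -0.0024 with DESeq2, -0.0030 with RLE factors and -0.26 to 0.30 with 1 library left out. Between models, Per3 on the control diet was -0.038 without the marked libraries, and Cry1 without Trp was 0.043 with library totals. The ratio of Arntl to Nr1d1 in livers moved by -0.52 to 0.21 with 1 liver left out, and that of Npas2 to Nr1d1 in xenografts by -0.078 to 0.51, and by -0.20 without the marked tumors. Except where the alternative removes samples or genes, the cause was not tested. Library totals called 732 genes higher and 1532 lower in the livers, against 1311 and 1026, and 60 and 11 against 36 and 17 in the xenografts, and between models without Trp 5797 and 2024 against 3796 and 2959. Low read numbers kept Npas2 and Rorb out of the liver test.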

Other observations

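In the control livers, mouse 102 stood nearest to the No-Trp group in several of these genes, a pattern noted after the values were seen. It had the highest control level of Dbp (11.8 CPM), Per3 (36.8 CPM), Per2 (54.9 CPM), Rora (25.8 CPM), Tef (107 CPM) and Alas1 (461 CPM), and also of the hepatocyte gene Alb (25585 CPM, against 6255 and 4521 CPM in livers 101 and 103). It was the lowest control for Ciart (3.94 CPM), Nr1d1 (21.5 CPM) and Fkbp5 (118 CPM). Without it the log2 fold changes of Dbp and Per3 were the highest among the fits that left out a liver, at 3.10 and 2.80. The part of hepatocyte content in its clock gene levels was not tested.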
